A study of Homo sapiens with 5 samples.

Results

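The genes described here are 8 targets of the transcription factor p53 other than the p21 gene CDKN1A: AEN, BTG2, CCNG1, DDB2, DRAM1, FDXR, GADD45A and GDF15. They were chosen by name, and all 8 had a row among the 18568 gene rows analysed and passed the filter on low values, which left 6317 genes in all. RNA was sequenced from IMR90, a fibroblast line from normal human lung. All 5 libraries came from cells infected with a retrovirus carrying RASV12, an always-active RAS that drives fibroblasts into senescence, and selected with puromycin for 3 days. Cells were seeded on day 10 after infection and transfected 24 hours later with an antagomir, an antisense oligonucleotide that blocks a microRNA. The 3 anti-miR-146a libraries (marked A, B and C) received the antagomir against miR-146a, and the 2 control libraries (marked B and C) a control antagomir. No library here came from cells without RASV12, so the values show differences within RAS-expressing cells only.

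p53 is activated by DNA damage and by oncogenes such as RAS, and binds DNA at a pair of adjoining decamers near or inside its target genes. Its targets halt the cell cycle, repair DNA, trigger apoptosis, adjust metabolism and autophagy, and feed back on p53 itself. In RAS-expressing fibroblasts p53 is one of the main arms that hold the senescent arrest.

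The libraries held 8430859 to 8748287 reads in the gene rows analysed with anti-miR-146a, and 8556206 and 9283950 with the control antagomir, which is not their full depth. Values are normalized reads, that is, reads divided by the library's size factor. Of the fibroblast markers, 9 of the 14 listed had a row, and their summed level was 193903 to 227187 with anti-miR-146a and 173585 to 243807 in controls. Of the 7 epithelial, 6 endothelial and 7 immune markers listed, 5 of each type had a row. Those with a row summed to no more than 80.3 per type in any library. KRT8, KRT18, PECAM1 and PTPRC were among the markers without a row, so the sums do not cover them. The immune marker CD3E was at 0 throughout. Both C libraries differed from the remaining 3: for 44.6% of the tested genes both C libraries lay on one side of the other 3. HRAS, which would also collect reads from a transgene of that gene, had 9631 and 10250 normalized reads in the C libraries (anti-miR-146a and control) and 3610 to 4265 elsewhere. No label says what the letter stands for or that libraries came from separate cultures, so p-values reflect library-to-library spread, part of which may be technical.

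Matches to the p53 decamer near the starts of the members, and seed matches to miR-146a, are shown first because they are the sequences through which p53 and the blocked microRNA could meet these genes. Windows from 250 bases before to 50 bases after each RefSeq gene start (GRCh38.p14) were searched for the best pair of p53 decamers on either strand, with a spacer of 0 to 13 bases and with the C and G of each core intact. The 8 members gave 10 windows for 7 genes, since CCNG1, DDB2 and FDXR have 2 each. GADD45A had no window in the promoter sequences used and was not searched. Below are the 4 closest pairs, with the decamers in capitals:
DDB2: tttGAACAAGCCCtGGGCATGTTTggc
AEN: gccGGGCTTGCCCGGGCATGTGGgag
FDXR: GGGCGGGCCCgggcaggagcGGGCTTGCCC
GDF15: cacAGCCATGCCCGGGCAAGAACtc

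The DDB2 stretch (chr11:47214976-47215002, plus strand) held 2 exact decamers 1 base apart, beginning at base 6 after the second RefSeq start. A pair with 0 mismatches was found in 0.0285% of the 35116 windows of the same length. By GENCODE 29 the stretch lay in a non-coding part of an exon in 1 of the 16 DDB2 transcripts, partly in an exon in 1, in an intron in 2 and outside the other 12. The AEN stretch (chr15:88621303-88621328, plus strand), 34 bases before the start, had 2 mismatches, as did the FDXR stretch (chr17:74872996-74873025, minus strand), 31 bases before the first start. The share of windows with a pair that close was 2.93%. The GDF15 stretch (chr19:18386183-18386207, plus strand) had 3 mismatches, as few as in 12.8% of windows. In 3 of 5 transcripts it lay in an exon and itself overlapped coding sequence. The best pairs of BTG2, CCNG1, DRAM1 and the remaining DDB2 and FDXR windows had 4 to 7 mismatches. These matches describe letters only; binding was not measured.

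The main mature strand of miR-146a, miR-146a-5p, is given with the seed (bases 2 to 8) in capitals. In the longest 3′ UTR of each member in GENCODE 29, AEN and BTG2 held a match to it, shown with the match in capitals:
miR-146a-5p: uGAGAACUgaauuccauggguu
AEN: ttgggggtaaAGTTCTCttccttttgt
BTG2: ctaggacaagAGTTCTCAgtcactgtgc

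The AEN match was a 7mer at base 466 of the 3′ UTR (chr15:88630747-88630773, plus strand) and the BTG2 match an 8mer at base 1048 (chr1:203308473-203308500, plus strand). The 8mer searched was AGTTCTCA, and the 7mers were its first or last 7 bases, on the transcript strand only. Of the 5152 tested genes with an annotated 3′ UTR, 20.5% held at least one of them and 4.58% held the 8mer. DDB2 held none in its 394-base 3′ UTR, nor did CCNG1, DRAM1, FDXR, GADD45A or GDF15.

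The level of the 8 genes spanned a wide range. Per kilobase of merged exon, the mean over the 5 libraries was 4445 normalized reads for GDF15, 1276 for GADD45A, 907 for CCNG1, 520 for AEN, 487 for BTG2, 243 for DRAM1, 167 for DDB2 and 59.9 for FDXR. The ranges over libraries overlapped between GADD45A and CCNG1, between AEN and BTG2, and between DRAM1 and DDB2. Every other neighbouring pair in this order was separated in all 5 libraries. GDF15 was the 120th most abundant of the 6317 tested genes by mean normalized reads.

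**Figure D1:**
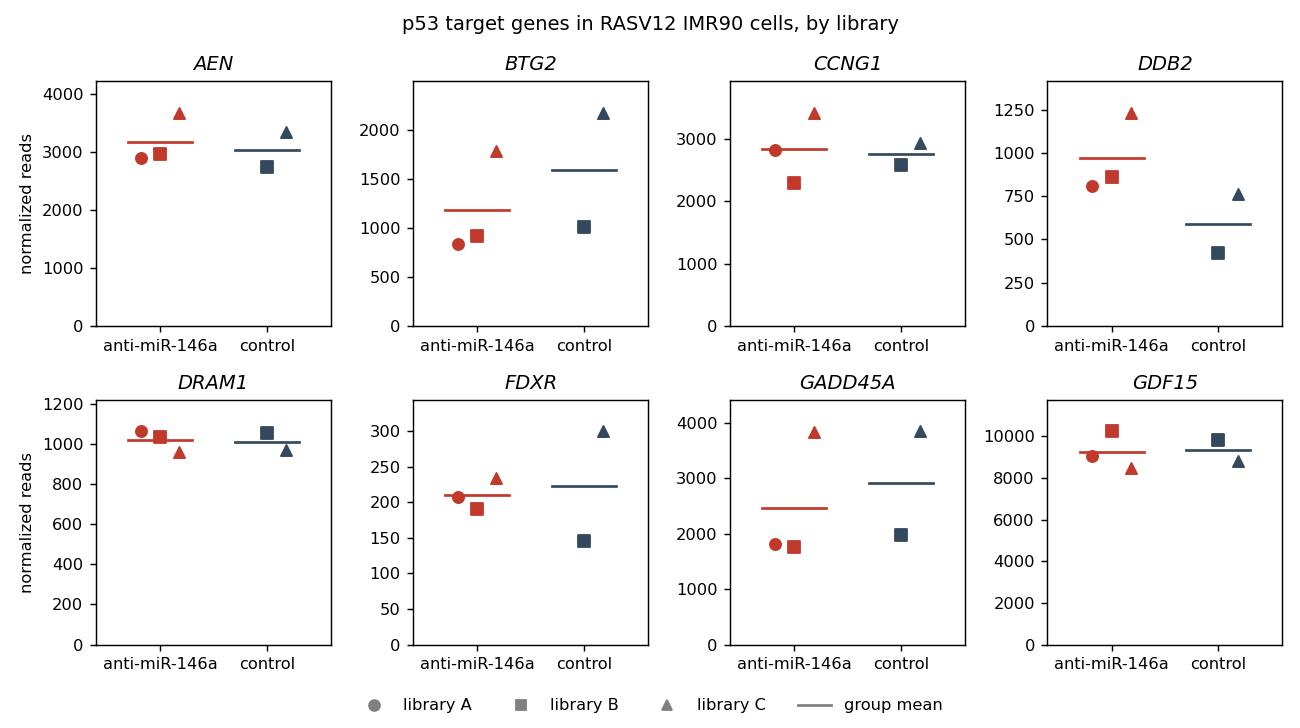
Normalized reads (y axis, from 0) of each gene in each library, with anti-miR-146a in red at the left and control antagomir in dark blue at the right; the symbol gives the library letter and the line the group mean. DDB2 is the gene whose 3 anti-miR-146a values (811 to 1231) all lie above both controls (422 and 760), while BTG2 and GADD45A are set apart by the triangles of the C libraries.

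DNA repair was represented by DDB2, the damage-recognition subunit that, with DDB1, starts global-genome nucleotide excision repair at ultraviolet lesions. DDB2 (ENSG00000134574.11, chromosome 11, 47214465 to 47239240, GRCh38) had 811, 863 and 1231 normalized reads in anti-miR-146a libraries A, B and C, against 422 and 760 in control libraries B and C. All 3 anti-miR-146a libraries were above both controls, and within each antagomir the C library was the highest. The same separation, upwards, was seen for 16.5% of the tested genes. The means were 968 ± 229 with anti-miR-146a (SD, n = 3) and 591 ± 239 with the control antagomir (SD, n = 2), a ratio of 1.64. In limma with the antagomir as the only term the log2 fold change was 0.75 (SE 0.29) and did not pass over all genes (adjusted p = 0.419). DDB2 was the 1 member of 8 with an unadjusted p under 0.05, which 11.3% of all tested genes had (6.7% higher, 4.62% lower).

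The DDB2 difference was present within both letters. Anti-miR-146a B was 2.04-fold over control B, and anti-miR-146a C was 1.62-fold over control C. With the C libraries as a term of the model, the log2 fold change was 0.86 (SE 0.0964, 95% interval 0.66 to 1.07). DDB2 was called higher with anti-miR-146a in that model (limma adjusted p = 0.000124). The same model called 15.4% of all tested genes, 8.64% as higher and 6.79% as lower. DDB2 was the 1 of the 8 members that the model called. The C term was chosen with the split of the C libraries already known from these data. Its p-values and calls, here and below, are therefore not independent of that split. With 5 libraries, limma drew a large part of each gene's spread in this model from other genes. Its SEs, intervals and calls are thus not from the gene's own spread alone. The size of the difference rested on the controls: the log2 fold change was 0.32 without control B and 1.17 without control C. In the authors' deposited table DDB2 has a fold change of 1.64 with an adjusted p of 0.109. An antisense gene, AC018410.2, overlaps 1534 bases of the DDB2 locus, introns included, on the opposite strand. No source says whether reads were counted by strand, so reads from any shared exon bases could not be told apart. Whether the exons overlap was not examined.

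The cell-cycle group comprised BTG2, GADD45A and CCNG1. BTG2, an antiproliferative protein that works with the CCR4-NOT deadenylase, had 838, 915 and 1779 normalized reads in anti-miR-146a libraries A, B and C, against 1005 and 2171 in control libraries B and C. GADD45A, a stress protein that binds PCNA and activates stress kinase signalling, had 1806, 1765 and 3823 in anti-miR-146a libraries A, B and C, against 1969 and 3839 in control libraries B and C. In both genes the 2 C libraries were above all others and the antagomirs overlapped. The ratio of C to B was 2.16 for BTG2 and 1.95 for GADD45A in controls, and that of C to the mean of A and B was 2.03 and 2.14 with anti-miR-146a.

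For BTG2 the log2 fold change between antagomirs was −0.41 (SE 0.43, limma adjusted p = 0.765), and for GADD45A −0.26 (SE 0.42, adjusted p = 0.856). With the C libraries as a term these were −0.24 (SE 0.0853, adjusted p = 0.0744) and −0.08 (SE 0.0788, adjusted p = 0.508). BTG2 was lower within both letters, with anti-miR-146a over control at 0.910 for B and 0.820 for C. For GADD45A the ratios were 0.896 and 0.996. Without control C both log2 fold changes turned positive, to 0.14 for BTG2 and 0.22 for GADD45A.

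CCNG1, or cyclin G1, which brings a phosphatase to MDM2 and so feeds back on p53, had 2823, 2286 and 3416 normalized reads in anti-miR-146a libraries A, B and C, against 2575 and 2941 in control libraries B and C. The groups overlapped, and the ratio of anti-miR-146a to control was 0.888 for B and 1.16 for C. The log2 fold change was 0.027 (SE 0.18, limma adjusted p = 0.973), with a 95% interval of −0.41 to 0.47. Adding the C libraries as a term gave 0.081 (SE 0.0967).

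**Figure D2:**
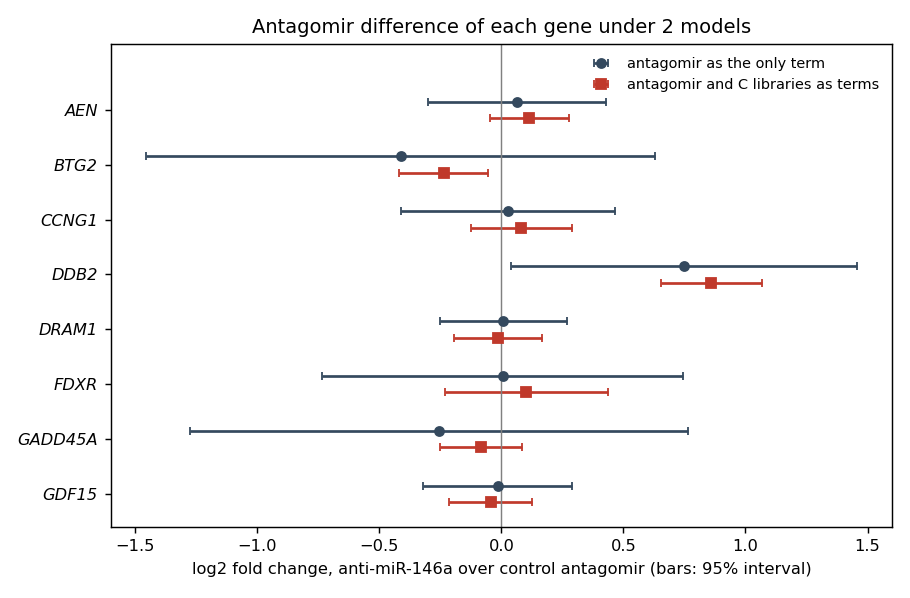
Log2 fold change of anti-miR-146a over control antagomir (x axis) for each gene (rows), with 95% intervals from limma, for the model with the antagomir alone (circles) and with the C libraries as a second term (squares). The interval of DDB2 runs from 0.04 to 1.46 in the first model and from 0.66 to 1.07 in the second; BTG2 and GADD45A have the widest intervals in the first model.

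The apoptosis gene AEN encodes a nuclease that p53 induces and that promotes DNA degradation in dying cells. AEN had 2903, 2972 and 3678 normalized reads in anti-miR-146a libraries A, B and C, against 2746 and 3342 in control libraries B and C. Both C libraries were above the other 3, and anti-miR-146a libraries B and C were 1.08-fold and 1.10-fold over the control with their letter. The log2 fold change was 0.064 (SE 0.15, limma adjusted p = 0.909), and with the C libraries as a term 0.11 (SE 0.0760, adjusted p = 0.333).

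Metabolism and autophagy were represented by FDXR and DRAM1. FDXR, the mitochondrial reductase that passes electrons to ferredoxin, was the lowest of the 8, with 207, 191 and 235 normalized reads in anti-miR-146a libraries A, B and C, against 146.04 and 299.46 in control libraries B and C. These rest on 153 to 321 reads per library. The 3 anti-miR-146a libraries lay between the 2 controls, and the direction was opposite within letters, at 1.31-fold for B and 0.784-fold for C. The log2 fold change was 0.0053 (SE 0.31, limma adjusted p = 0.998), with an interval of −0.74 to 0.75 that leaves changes of either sign undetected at this spread. When both C libraries were left out, with 1 control remaining, it was 0.44 and passed (limma adjusted p = 0.0356). That fit called 25.8% of its genes, 12.5% higher and 13.3% lower, and of the members FDXR and DDB2.

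DRAM1, a lysosomal membrane protein of p53-induced autophagy, had 1063, 1034 and 959 normalized reads in anti-miR-146a libraries A, B and C, against 1057 and 969 in control libraries B and C. This was the steadiest of the 8, with the highest library 1.11-fold over the lowest. The log2 fold change was 0.0081 (SE 0.11, limma adjusted p = 0.990), with a 95% interval of −0.25 to 0.27. On the opposite strand the lincRNA AC079907.2 overlaps 7393 bases of the DRAM1 locus and the antisense gene AC084398.2 overlaps 1310. On the same strand the processed pseudogenes AC084398.1 and NENFP2 overlap 459 and 440 bases of the locus. These overlaps were taken over whole genes, introns included, and whether they touch exons of DRAM1 was not examined.

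GDF15, a secreted member of the TGF-beta family and a common factor of stressed and senescent cells, had 9050, 10229 and 8452 normalized reads in anti-miR-146a libraries A, B and C, against 9815 and 8836 in control libraries B and C. The groups overlapped, and the C libraries were the 2 lowest. The log2 fold change was −0.015 (SE 0.13, limma adjusted p = 0.980) and its 95% interval ran from −0.32 to 0.29.

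Across the 8 members none passed in limma over all genes with the antagomir as the only term, where 0.0% of the 6317 tested genes were called. edgeR and limma voom also called none of them and no other gene; DESeq2 called none of them and 0.737% of its genes (0.497% higher, 0.24% lower). With the letter as a block, DDB2 was again the 1 member called, as higher, where 10.1% of all tested genes were called (5.65% higher, 4.42% lower). In that fit limma took each gene's spread from all genes together. The median log2 fold change was 0.0067 over the 8 members and 0.0046 over all tested genes. Groups that did not overlap were seen for 1 of the 8 (DDB2) and for 30.0% of all tested genes. Within letters, 2 members (AEN and DDB2) were higher in both B and C, as were 35.6% of all tested genes, 3 (BTG2, DRAM1 and GADD45A) were lower in both, as were 30.4%, and 3 (CCNG1, FDXR and GDF15) differed in direction, as did 34.0% of all tested genes. In the authors' deposited table the adjusted p of the 7 members other than DDB2 ran from 0.747 to 0.991, and 2.57% of its rows with a value lie under 0.05.

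More members were separated by the library letter (7 of 8) than by the antagomir (1 of 8), as were more of all tested genes (44.6% and 30.0%). The mean of the C libraries was the higher one for 6 members and for 51.5% of all tested genes. Both C libraries lay above the other 3 for 5 of the 8 members (AEN, BTG2, CCNG1, FDXR and GADD45A) and below them for 2 (DRAM1 and GDF15). The share among all tested genes was 24.3% above and 20.3% below. DDB2 was the exception: its control C value of 760 lay below 811 and 863 in anti-miR-146a A and B. The mean log2 difference, C libraries minus the other 3, was 1.10 for BTG2, 1.05 for GADD45A, 0.56 for FDXR, 0.54 for DDB2, 0.31 for CCNG1, 0.29 for AEN, −0.12 for DRAM1 and −0.16 for GDF15. The median over the 8 was 0.43, against 0.012 over all tested genes. The part of HRAS, which was also higher in the C libraries, in these differences was not tested. The split into C libraries and the rest was known from earlier results, so the differences are given without a test.

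**Figure D3:**
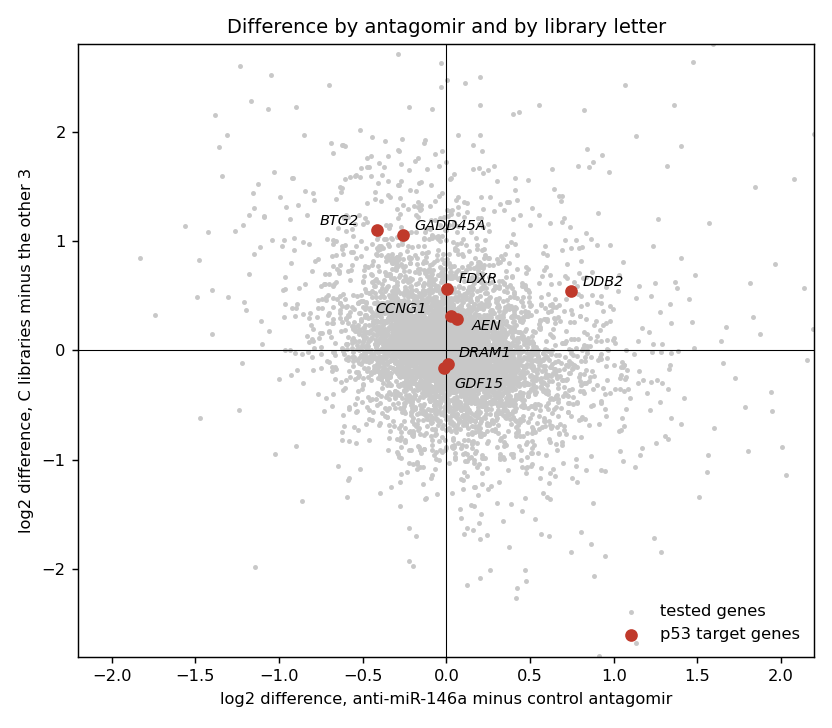
Each point is a tested gene, with the log2 difference between anti-miR-146a and control antagomir on the x axis and that between the 2 C libraries and the other 3 on the y axis; the 8 p53 targets are red and 7 genes lie outside the plotted range. BTG2 and GADD45A lie near 1.10 and 1.05 on the y axis, and DDB2 at 0.75 on the x axis and 0.54 on the y axis.

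By the root mean square distance between log2 profiles centred over the 5 libraries, the most alike pairs of members were DRAM1 with GDF15 (0.0730), BTG2 with GADD45A (0.106) and AEN with CCNG1 (0.118). The most distant pair was BTG2 with GDF15 (0.626). The 5 other tested genes nearest to the mean profile of the members were ATOX1, ABLIM3, CCND1, FBXL19-AS1 and CTSO, at distances of 0.0268 to 0.0340. CCND1, or cyclin D1, had 37819, 36649 and 51743 normalized reads in anti-miR-146a libraries A, B and C, against 33178 and 47945 in control libraries B and C.

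A wider list of p53 targets held 121 further genes, of which 88 had a row and 81 were tested. The tested genes of this list and of the regulator list have symbols from A to I. None of the 81 passed in limma with the antagomir as the only term; 37 had a positive and 44 a negative log2 fold change, with a median log2 fold change of −0.017. With the C libraries as a term, 10 were called higher and 9 lower, or 19 of 81. The same model called 8.64% of all tested genes as higher and 6.79% as lower. Without CEL, which passed the filter through its anti-miR-146a libraries alone, 9 of 80 were called in each direction. Such genes were not removed from the shares of all tested genes, here or elsewhere. Of the 6317, 134 reached the minimum only with anti-miR-146a and 19 only in controls. With the letter as a block 3 of the 81 were called higher and 6 lower, beside 5.65% and 4.42% of all tested genes. Both C libraries lay above the other 3 for 41 of the 81 and below for 10, where the shares of all tested genes were 24.3% and 20.3%. The median log2 difference was 0.19, and 0.012 over all tested genes.

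CDKN1A, the p21 inhibitor of cyclin-dependent kinases and best-known p53 target, had 24750, 25920 and 31721 normalized reads in anti-miR-146a libraries A, B and C, against 16590 and 26150 in control libraries B and C. Control C lay inside the anti-miR-146a range and control B below it. Its log2 fold change was 0.39 (SE 0.22, limma adjusted p = 0.551), and 0.47 (SE 0.0885, adjusted p = 0.00400) with the C libraries as a term, where it passed as higher.

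Of the other 10 tested arrest and growth genes, FAM212B (now INKA2), an inhibitor of the kinase PAK4, had 790, 751 and 704 normalized reads in anti-miR-146a libraries A, B and C, against 494 and 429 in control libraries B and C. All 3 anti-miR-146a values were above both controls, with a log2 fold change of 0.70 (SE 0.12, limma adjusted p = 0.235). It was the 1 gene of the wider list that DESeq2 called (adjusted p = 0.0202), and it passed with the C libraries as a term (adjusted p = 0.000520). HEXIM1, an inhibitor of the elongation factor P-TEFb, and DUSP5, a phosphatase of ERK, passed as lower in that model, with log2 fold changes of −0.33 and −0.29. DUSP5 and CDKN1A were the most abundant of this role.

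Among 21 metabolic, redox and autophagy targets, 4 were called higher and 1 lower with the C libraries as a term (8.64% and 6.79% of all tested genes). DGKA, a diacylglycerol kinase, had 638, 559 and 693 normalized reads in anti-miR-146a libraries A, B and C, against 335 and 521 in control libraries B and C, and a log2 fold change of 0.65 (SE 0.113, adjusted p = 0.00229) in that model. GSS, the last enzyme of glutathione synthesis, had a log2 fold change of 0.33 (SE 0.0906). CEL, a lipase gene and one of the 4, had 12.1 to 13.7 normalized reads with anti-miR-146a and 3.73 and 4.77 in controls. It reached the minimum of 10 only with anti-miR-146a, so it was tested only because it is high there, and its call is not counted as a result; without it 3 of 20 were called higher. The most abundant of this role, HMOX1 and GPX1, did not pass, at log2 fold changes of 0.071 and −0.20.

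Among 18 secreted and surface targets, 2 were called in each direction in that model (8.64% higher and 6.79% lower among all tested genes). HBEGF, an EGF receptor ligand, had 708, 732 and 1317 normalized reads in anti-miR-146a libraries A, B and C, against 1281 and 2329 in control libraries B and C. Anti-miR-146a libraries B and C were each below the control with their letter, and the C libraries were the highest of each antagomir. Library A has no control with its letter. The log2 fold change was −0.97 (SE 0.35, limma adjusted p = 0.406), and −0.83 (SE 0.0830, adjusted p = 5.87e-05) with the C libraries as a term. COL4A1 and CD82, the most abundant, did not pass (−0.13 and −0.11).

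Of 14 apoptosis targets 2 were called higher and 1 lower with the C libraries as a term. For all tested genes the share called was 15.4% (8.64% higher, 6.79% lower). BCL2L1, which encodes the survival protein BCL-XL and is the most abundant, was higher (log2 fold change 0.31, SE 0.0938, adjusted p = 0.0390), and EI24 did not pass (−0.13). None of the 4 other repair genes tested passed in either model; ASCC3 and APOBEC3C, the most abundant, had log2 fold changes of 0.096 and 0.18 with the C libraries as a term. Of the 3 feedback genes tested, FBXW7, a ubiquitin ligase subunit, had 997, 897 and 1019 normalized reads in anti-miR-146a libraries A, B and C, against 1290 and 1306 in control libraries B and C, and was lower in the model with the C term (log2 fold change −0.41, SE 0.0879, adjusted p = 0.00774). Of 10 transcription and signalling targets 2 were called lower in that model, beside 6.79% of all tested genes. The stress factor ATF3 was among them (−0.38, SE 0.0806, limma adjusted p = 0.00762). IER3 and FOSL1, the most abundant, did not pass (−0.11 and 0.21).

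**Figure D4:**
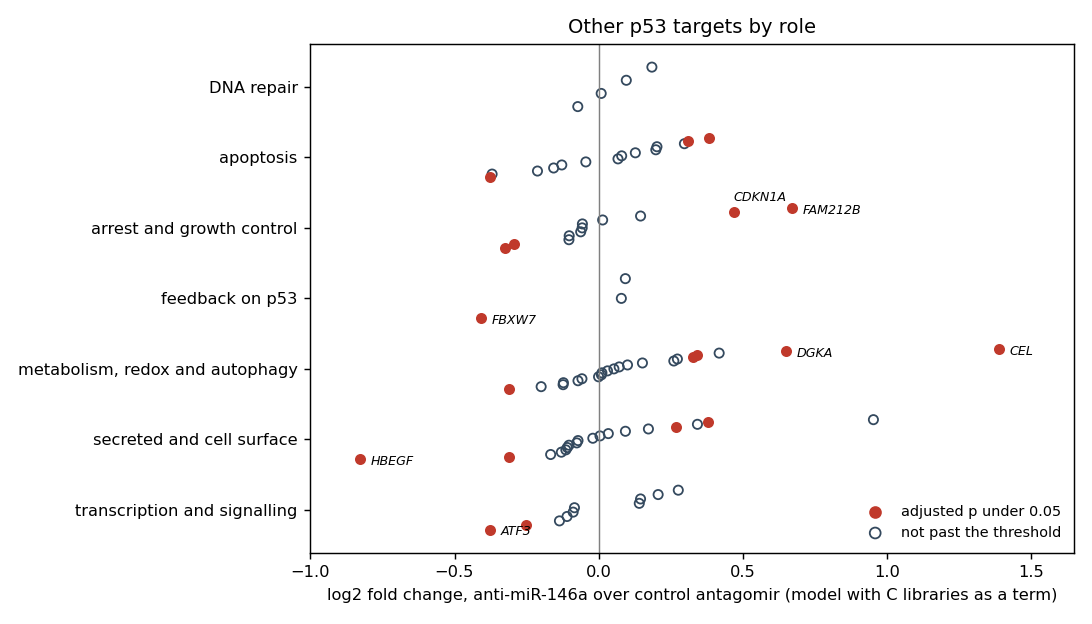
Log2 fold change of anti-miR-146a over control antagomir (x axis) of the 81 other p53 targets tested, by role (rows), from the model with the C libraries as a term; filled points passed at an adjusted p under 0.05 and open points did not. The 19 filled points split into 10 at the right and 9 at the left, with HBEGF (−0.83) at the left end; the point farthest right (1.39) is CEL, which passed the filter on low values only through its anti-miR-146a libraries.

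Of 43 listed regulators of p53, 30 had a row and 29 were tested. With the antagomir as the only term none passed, and 15 had a positive and 14 a negative log2 fold change. With the C libraries as a term 4 were called higher and 2 lower of 29, beside 8.64% higher and 6.79% lower among all tested genes. The higher genes were the damage kinases ATM (log2 fold change 0.33, SE 0.0864) and CHEK2 (0.40, SE 0.122), the kinase CDK5 (0.49, SE 0.107) and the nuclear matrix protein BANP (0.30, SE 0.0898). The lower ones were HEXIM1, also in the wider list, and EEF1E1, a cofactor of the aminoacyl-tRNA synthetase complex (−0.59, SE 0.180). BRD7 and HNRNPK, the next lower by unadjusted p, did not pass (−0.21 and −0.18). For both C libraries the regulators were above the other 3 in 5 and below in 9 of 29 genes (24.3% and 20.3% of all tested genes), with a median log2 difference of 0.0047.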

How the data were processed

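The submitters' processing notes name Trimmomatic 0.35, STAR 2.5.1b, DESeq2 1.22.2 and GRCh38; the counter, its strand setting and the annotation release were not stated. The deposited signal per library is the read count divided by a size factor by the authors, beside a fold change by the authors (linear ratio), p-value and adjusted p-value. In each column 100% of values were whole multiples of one step (tolerance 1e-06), so read counts were recovered from the deposited values. Columns carry an antagomir and a letter, which gives the group but no numbered sample.

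Genes reaching 10 in 2 or more libraries were tested with limma 3.58.1 (R 4.3.3, trend) on log2(value + 1), which understates changes of low genes, with Benjamini-Hochberg adjustment over all tested genes and a threshold of 0.05. Alternatives were edgeR 4.0.16, DESeq2 1.42.0 and voom on the recovered reads, and other scalings, filters, pseudocounts, libraries and terms. The fits were run on simulated counts that held no difference between the C libraries and the others. How they perform with such a split was therefore not tested.

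Members, lists, tests and the term for the C libraries were chosen with earlier results of these data known, and the target and regulator lists came from general knowledge of p53. The genes named were, by rule, all members, CDKN1A, the genes called in each list or the 4 with the smallest unadjusted p per direction, the 2 most abundant per role and the 5 nearest profiles. DUSP5 as a lower gene and BCL2L1 as a higher one were named under the abundance part of the rule. Lengths, strands, transcripts and 3′ UTRs came from GENCODE 29 (GRCh38), whose positions equalled the deposited ones for all 8 members.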

Additional observations from a re-analysis of the deposited data

How the results depend on the processing

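Among all tested genes the count past the threshold was 0 with the antagomir as the only term and 46 with DESeq2, 975 with the C libraries as a term, 1568 without both C libraries and 0 to 12 when 1 library was left out (12 without anti-miR-146a C), while 715 had an unadjusted p under 0.05. The letter was also used as a replicate block, because the columns carry no replicate number. With this block 636 genes passed, or 10.1% of those tested. Among them were 1 of the 8 members (DDB2, log2 fold change 0.86), 9 of 81 in the wider list and 2 of 29 regulators. The block leaves each gene 1 residual degree of freedom, and limma took the spread from all genes together, not from the gene itself. The antagomir difference in this fit rests on letters B and C, since library A has no control with its letter. Deviations of same-lettered libraries correlated at 0.505 for B and 0.661 for C, and those of anti-miR-146a A with control B at 0.532. With 2 controls their deviations mirror each other, so these values are not separate checks that same-lettered libraries belong together. Control B correlated no less with anti-miR-146a A than with anti-miR-146a B. Of the 8 members 1 passed with the C libraries as a term and 2 without both C libraries (DDB2 and FDXR). At an unadjusted p under 0.05 it was 1 of 8. In the wider list 1 of 81 passed with DESeq2, 19 of 81 with the C term and 23 of 80 without both C libraries. For the regulators it was 6 of 29 with the C term and 8 of 29 without both C libraries. The shares of all genes in these fits were 0.737% with DESeq2, 15.4% with the C term and 25.8% without both C libraries. At an unadjusted p under 0.05 the share was 11.3%. The fit without both C libraries has 1 control, assumed to vary like the other group, and it too took each gene's spread from all genes together. Members whose groups did not overlap numbered 1 to 4 with 1 library left out, where 35.9% to 61.2% of all tested genes did not overlap, and 5 of 8 without both C libraries, where 82.4% did not. Other filters, pseudocounts, TMM scaling and a threshold of 0.10 called no gene.

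Signs near 0 were not stable. The log2 fold change of DRAM1 was −0.010 with DESeq2, −0.0072 with TMM, −0.013 with the C term, −0.023 with the letter block, −0.011 without both C libraries, −0.031 within B, −0.016 within C and −0.054 to 0.070 with 1 library left out. That of FDXR was −0.081 with edgeR, −0.096 with DESeq2, −0.00014 with voom, −0.0099 with TMM, −0.35 within C and −0.51 to 0.52 with 1 library left out. That of CCNG1 was −0.020 without both C libraries, −0.17 within B and −0.12 to 0.17 with 1 left out, and that of GDF15 0.060 within B and −0.091 to 0.061 with 1 left out. With 1 left out AEN ran from −0.078 to 0.21, BTG2 from −0.97 to 0.14 and GADD45A from −0.74 to 0.22. DDB2 stayed above 0 in every setting run, from 0.32 to 1.17. The cause of these changes was not tested. The median difference between the C libraries and the others was 0.21 to 0.52 with 1 library left out.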
